A study of Arabidopsis thaliana with 64 samples.

Results

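Peroxisomal fatty acid beta-oxidation was followed through 9 genes out of the 32833 in the count tables of Arabidopsis seedlings. They were chosen by locus from their known place in the pathway. No measured value entered the rule, though earlier results of these data were known at the time. LACS6 (AT3G05970) and LACS7 (AT5G27600) encode the long-chain acyl-CoA synthetases of the peroxisome. ACX1 (AT4G16760), ACX2 (AT5G65110), ACX3 (AT1G06290) and ACX4 (AT3G51840) are acyl-CoA oxidases, MFP2 (AT3G06860) and AIM1 (AT4G29010) multifunctional proteins, and KAT2 (AT2G33150, PKT3 in RefSeq) is a thiolase. Each of the 9 was counted in each of the 64 libraries, with 104 to 10474 counts per library, and all 9 passed edgeR's filter on low counts in every comparison.

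In the pathway, acyl-CoA synthetases activate fatty acids released from oil bodies. Acyl-CoA oxidases then open each round of chain shortening, multifunctional proteins hydrate and oxidise the product, and thiolase releases acetyl-CoA. In a germinating oilseed such as Arabidopsis this acetyl-CoA feeds the glyoxylate cycle and gluconeogenesis, on which a seedling lives until photosynthesis starts. The same enzymes also act on precursors of jasmonate and auxin.

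The libraries came from whole seedlings of transformed Col-0 plants carrying CHA19, ENAP1, LBD16 or WRI3 fused to the glucocorticoid receptor (GR) under the 35S promoter, which drives expression in most tissues. The series text writes the CHA19 construct without GR. For each GR-TF, 4 independent insertion lines were kept dark for 5 days before dexamethasone (Dex, 10 µM) or mock treatment, and stayed dark for another 24 h. Dex lets a GR fusion enter the nucleus. With 2 replicates per line and treatment, each a pool of seedlings from a plate, every GR-TF had 8 Dex and 8 mock libraries. All libraries carry a GR-TF, so an effect of Dex alone cannot be told apart from that of the transcription factor. Likewise, the GR-TF cannot be told apart from anything else that differed between the 4 sets of lines.

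Total counts per library ran from 2059928 to 7968970. Levels are given as CPM, counts scaled to a common library total with TMM factors over all libraries. Transcripts of the introduced transcription factors were checked first. CHA19 (ETL1 in RefSeq) lay between 105 and 229 CPM in its own lines and reached 72.0 CPM in the others. ENAP1 (AT3G11100) lay between 109 and 567 CPM in its own lines and reached 117.9 CPM in the others, so these ranges overlapped. LBD16 had 50.9 to 470.1 CPM in its own lines and at most 18.8 CPM elsewhere, while WRI3 (ADAP in RefSeq) had 35.7 to 219.0 CPM and at most 2.47 CPM elsewhere. A set of 6 libraries stood apart, with a correlation of 0.746 to 0.954 with the median of the other libraries of their GR-TF over genes with a mean of at least 1 CPM, against 0.965 or more for the other 58. They were GR-CHA19 line 7 Dex replicate 1, GR-ENAP1 line 2 Dex replicate 1, GR-WRI3 line 8 Dex replicate 1 and line 10 Dex replicate 2, GR-ENAP1 line 1 mock replicate 1 and GR-LBD16 line 3 mock replicate 1. Their total counts, 4633781 to 7571782, lay inside the range of the rest. Fold changes of the members from edgeR described below are also given without them.

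The genes lie apart in the genome (TAIR10.1), and AIM1 alone overlaps another gene, AT4G29000, by 23 bases. On chromosome 3, LACS6 spans 1786279 to 1791887, MFP2 2161735 to 2166357 and ACX4 19225360 to 19229341. ACX1 lies on chromosome 4 from 9424534 to 9428895 and AIM1 from 14297044 to 14302287. On chromosome 5, LACS7 runs from 9742492 to 9747024 and ACX2 from 26009521 to 26012684. ACX3 lies on chromosome 1 from 1922208 to 1926278 and KAT2 on chromosome 2 from 14047478 to 14051400. The longest run of identical exon sequence shared with a relative was 60 bases, between ACX3 and ACX6, a gene with a mean of 0.166 CPM. It was 53 bases between KAT2 and PKT4 (10.5 CPM), 47 between ACX1 and ACX5 (31.7 CPM), 21 between LACS6 and LACS7 and 17 between MFP2 and AIM1.

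The 250 bases before the annotated gene start (RefSeq, TAIR10.1) are shown for MFP2 (chr3:2161485-2161734, plus strand), ACX3 (chr1:1921958-1922207, plus strand) and ACX4 (chr3:19229342-19229591, minus strand). MFP2, ACX3 and LACS7 lay above the other libraries of their GR-TF, and ACX4 below them, in all 6 libraries that stood apart. The window of LACS7, in which none of the motifs below was found, is not shown. Each sequence shown is written 5′ to 3′ on the gene's strand, and capitals mark the motifs found.
MFP2: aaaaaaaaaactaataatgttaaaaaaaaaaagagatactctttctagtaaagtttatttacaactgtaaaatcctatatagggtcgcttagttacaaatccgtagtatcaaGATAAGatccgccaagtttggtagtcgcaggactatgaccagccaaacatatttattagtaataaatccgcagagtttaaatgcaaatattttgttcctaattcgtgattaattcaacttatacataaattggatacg
ACX3: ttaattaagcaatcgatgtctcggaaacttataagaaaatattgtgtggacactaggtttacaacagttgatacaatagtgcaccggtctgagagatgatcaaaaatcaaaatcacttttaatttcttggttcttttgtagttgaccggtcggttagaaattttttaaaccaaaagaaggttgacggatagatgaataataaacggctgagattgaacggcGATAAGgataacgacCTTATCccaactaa
ACX4: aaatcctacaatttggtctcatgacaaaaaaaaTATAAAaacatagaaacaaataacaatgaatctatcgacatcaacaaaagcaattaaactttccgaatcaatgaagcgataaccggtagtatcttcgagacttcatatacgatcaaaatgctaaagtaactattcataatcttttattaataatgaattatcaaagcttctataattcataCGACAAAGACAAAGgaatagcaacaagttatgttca
The motifs searched were the I-box core (GATAAG), the G-box (CACGTG), the RY motif (CATGCA) and the AW-box, each on both strands, and the TATA box (TATAAA) on the given strand. The AW-box is the sequence known to be bound by WRI1, a relative of WRI3, and the G-box and I-box are known from light-regulated promoters. MFP2 holds an I-box core that starts at -138 from the gene start, and ACX3 holds a pair of them at -29 and -14, the second on the opposite strand. ACX4 holds an AW-box at -36, on the opposite strand, and a TATA box at -217. Of 27431 promoters of the same length, 12.3% held an I-box core, 9.29% an AW-box and 32.9% a TATA box. Among the other members, ACX1 had a G-box at -92 (6.49% of promoters). None of the motifs was found for LACS7, AIM1, KAT2, LACS6 or ACX2, and the RY motif (8.44% of promoters) in no member. The windows of ACX2 and LACS6 also hold part of another gene.

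Per kilobase of exon, the transcript levels of the members in mock-treated lines fell into steps. ACX4, an oxidase of short chains, had a mean of 375 CPM per kb ± 102 (SD, n = 16 lines), and KAT2, the thiolase, 321 ± 66.1. These neighbours did not differ beyond their spread. ACX2, an oxidase of long chains, followed at 127 ± 17.4 CPM per kb and ACX1, which takes medium and long chains, at 106 ± 11.3. MFP2 had 75.2 ± 60.0 CPM per kb and AIM1 60.7 ± 6.63, the first with the widest spread relative to its mean of any member. The lowest were LACS6 (37.3 ± 9.57), ACX3, an oxidase of medium chains (30.7 ± 14.4), and LACS7 (27.2 ± 12.5), whose neighbours all overlapped within 1 SD. The gap to the next gene exceeded the larger SD of the pair after KAT2, ACX2 and AIM1. Without the 6 libraries AIM1 (60.4 CPM per kb) stood above MFP2 (55.7), and the gap exceeded the larger SD after KAT2, ACX2, ACX1, MFP2 and LACS6.

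**Figure D1:**
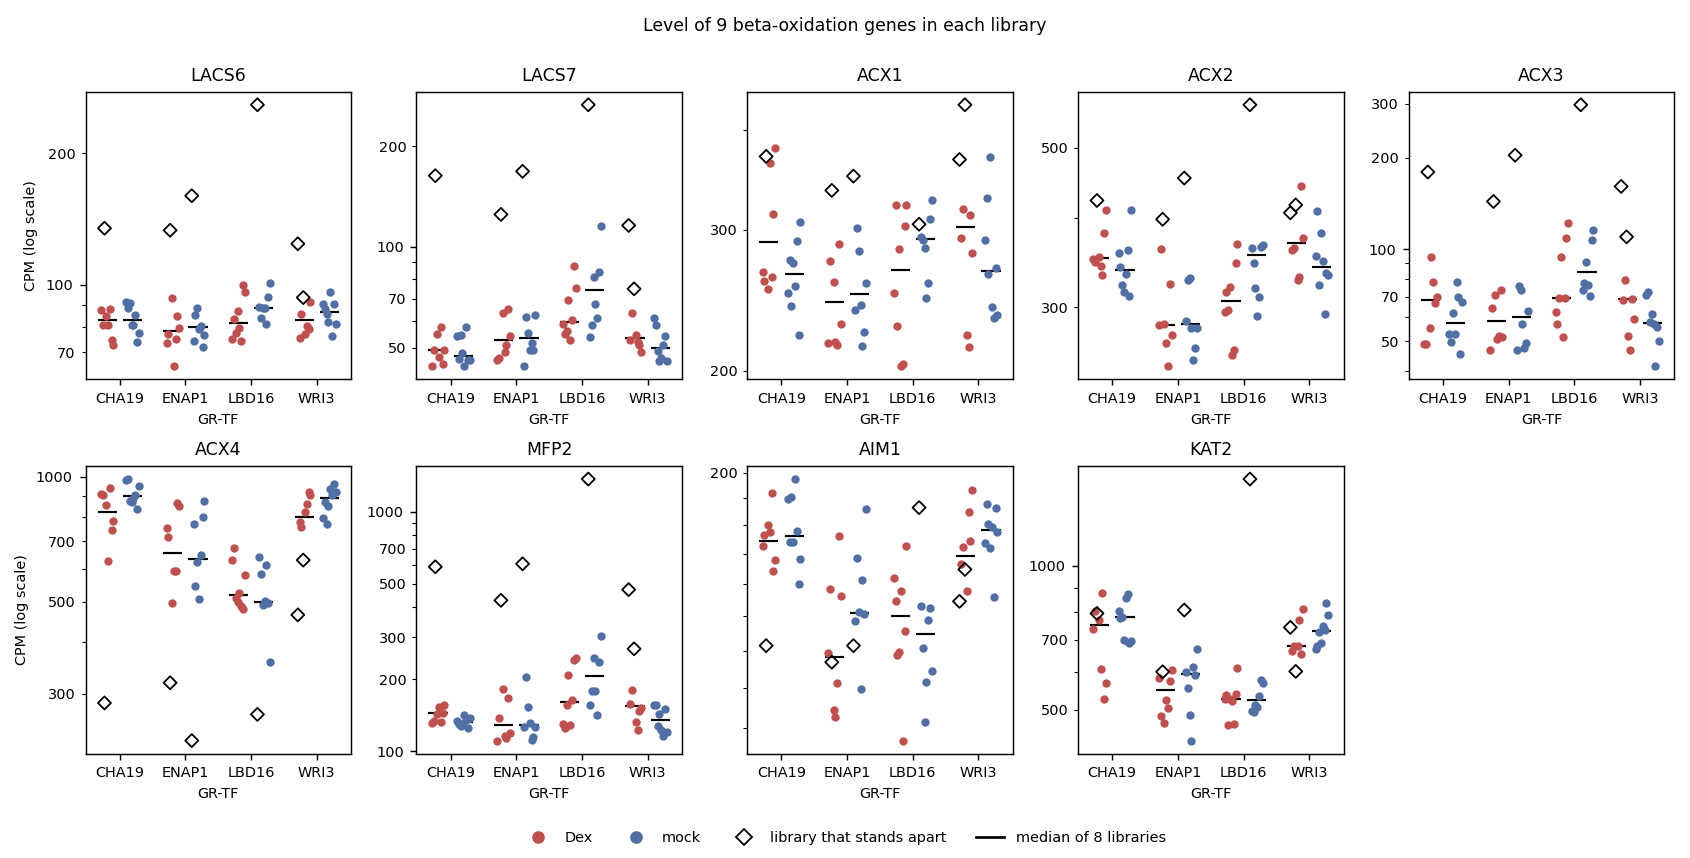
Level of each gene in each of the 64 libraries, in CPM on a log scale, by GR-TF, with Dex libraries (red) left of mock libraries (blue). Bars are medians of 8 libraries and open diamonds the 6 libraries that stood apart, which lie above the other libraries of their GR-TF for MFP2, ACX3 and LACS7 and below them for ACX4.

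Whether induction of a GR-TF altered beta-oxidation genes was asked by comparing Dex with mock in each GR-TF. No member passed the test. The threshold was 0.05 for the p-value of edgeR's quasi-likelihood test after Benjamini-Hochberg correction, and 0 of 9 members passed in GR-CHA19, where 0 of 18272 genes passed (0%). In GR-ENAP1 0 of 9 members and 0 of 18506 genes (0%) passed, and in GR-LBD16 0 of 9 and 0 of 18706 (0%). In GR-WRI3 0 of 9 members passed beside 5 of 18311 genes (0.0273%). Over all 16 lines together 0 of 9 members and 0 of 19541 genes (0%) passed. Before adjustment, p-values under 0.05 were found for 0 members in GR-CHA19 (14% of all genes), 0 for GR-ENAP1 (1.81%), 1 for GR-LBD16 (MFP2, 6.31% of all genes), 3 for GR-WRI3 (MFP2, ACX3 and LACS7, 15.5%) and 1 over all lines (KAT2, 6.58%). The members' median log2 fold change was 0.11 for GR-CHA19, -0.12 for GR-ENAP1, -0.25 for GR-LBD16, 0.12 for GR-WRI3 and -0.02 over all lines, while the medians over all genes lay between -0.01 and 0.02. Without the 6 libraries the members' medians came to 0.02, 0.01, -0.13, 0.02 and -0.0039, and the unadjusted p-value was under 0.05 for MFP2 and ACX3 in GR-WRI3 (7.06% of all genes) and for 0 members elsewhere (3.69% to 11.9%). In these fits 0 members passed in each comparison, beside 0.0105% of the genes in GR-LBD16, 0.0703% in GR-WRI3 and 0% elsewhere. DESeq2 called 0 members in each of these comparisons, beside 0%, 0%, 0.00535%, 0.153% and 0.0102% of the genes.

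The regression used in the study, glm.nb of MASS, called more. In it ACX1 was higher with Dex in GR-CHA19 (log2 fold change 0.23, adjusted p = 0.0392 from glm.nb), where 23.6% of all genes were called. In GR-LBD16 ACX1 (-0.14) and ACX2 (-0.24) were called lower, beside 8.14% of the genes. In GR-WRI3 5 of 9 members were called, MFP2 (0.51), ACX3 (0.42), LACS7 (0.30) and ACX2 (0.13) as higher and ACX4 (-0.20) as lower, beside 21.7% of the genes. In GR-ENAP1 glm.nb called 0 members, with 1 at an unadjusted p-value under 0.05, beside 1.31% of the genes. The glm.nb fits were run only with the 6 libraries that stood apart included. Without them, edgeR put MFP2, ACX3, LACS7, ACX2 and ACX4 at 0.18, 0.17, 0.09, 0.08 and -0.09 in GR-WRI3. ACX1 came to 0.15 in GR-CHA19 and -0.14 in GR-LBD16, and ACX2 to -0.15 in GR-LBD16.

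**Figure D2:**
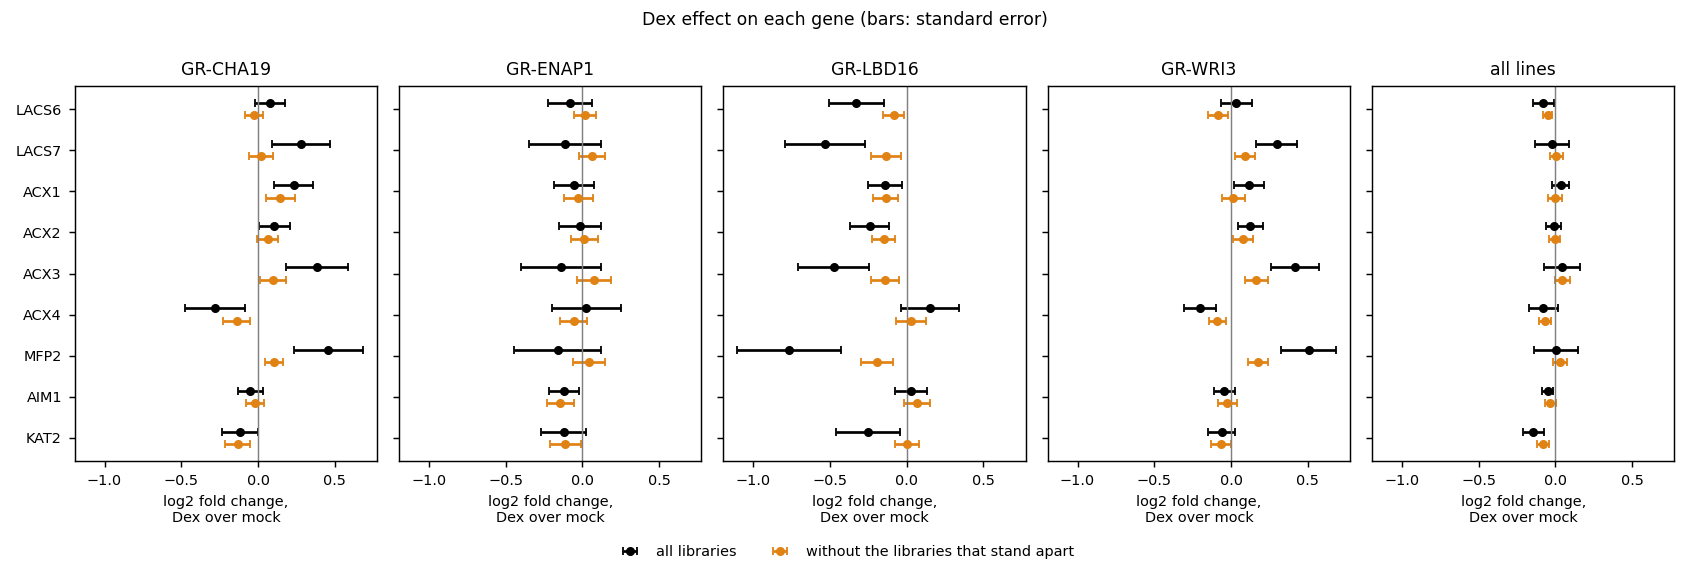
Log2 fold change, Dex over mock, of each gene in each GR-TF and over all lines. Bars are standard errors derived from edgeR's test. Values are from all libraries (black) and without the 6 libraries that stood apart (orange). MFP2, ACX3 and LACS7 lie above 0 in GR-CHA19 and GR-WRI3 and below it in GR-LBD16, and in each case lie closer to 0 without those libraries.

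The synthetases that activate fatty acids had the following levels. LACS7 ran from 44.0 to 163 CPM (median 49.1) in 8 GR-CHA19 Dex libraries, against 44.1 to 57.6 CPM (median 47.2) in 8 mock libraries. In GR-LBD16 it ran from 52.8 to 87.8 CPM (median 59.7) with Dex and from 54.0 to 266 CPM (median 74.3) with mock treatment. In both GR-TFs the groups overlapped, and the highest value came from a library that stood apart. In GR-WRI3 LACS7 had 48.6 to 116.0 CPM (median 53.5) with Dex and 45.6 to 61.3 CPM (median 49.8) with mock treatment. Its log2 fold change was 0.30 ± 0.13 (standard error) in GR-WRI3 (unadjusted p = 0.0438 and adjusted p = 0.317 from edgeR), with 3 of 4 lines higher, and -0.53 ± 0.26 in GR-LBD16 (adjusted p = 0.621), with 4 of 4 lines lower. LACS7 came, without the 6 libraries, to 0.09 in GR-WRI3, higher in 2 of 4 lines, and -0.13 in GR-LBD16, lower in 3 of 4. LACS6 moved less, with fold changes from -0.33 in GR-LBD16 to 0.08 in GR-CHA19, and from -0.09 in GR-LBD16 to 0.02 in GR-ENAP1 without the 6 libraries. Over all libraries LACS6 lay between 65.0 and 134.7 CPM (median 80.9) with Dex and between 72.1 and 258.7 CPM (median 85.5) with mock treatment.

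Among the acyl-CoA oxidases, ACX3 ran from 46.7 to 161 CPM (median 68.8) in GR-WRI3 Dex libraries and from 41.4 to 72.4 CPM (median 57.4) in mock libraries, and was higher with Dex in 4 of 4 lines (3 of 4 without the 6 libraries). Its log2 fold change there was 0.42 ± 0.15 (standard error, unadjusted p = 0.0179 and adjusted p = 0.301 from edgeR) and 0.17 without the line 8 and line 10 libraries named above. ACX3 was at 0.38 ± 0.20 in GR-CHA19 (adjusted p = 0.378) and -0.48 ± 0.23 in GR-LBD16 (adjusted p = 0.621), against 0.10 and -0.14 without the 6 libraries. ACX4 lay the other way. In GR-CHA19 it ran from 285 to 941 CPM (median 821) with Dex and from 838 to 989 CPM (median 899) with mock treatment, with a log2 fold change of -0.28 ± 0.20 (adjusted p = 0.450 from edgeR) and 4 of 4 lines lower. In GR-WRI3 ACX4 ran from 465 to 920.5 CPM (median 802) with Dex and from 772 to 961 CPM (median 888) with mock treatment, again lower in 4 of 4 lines (-0.20 ± 0.11, adjusted p = 0.353). In GR-LBD16 it was at 0.15 ± 0.19, and in GR-ENAP1 at 0.03 ± 0.23. ACX4 was, without the 6 libraries, at -0.14 in GR-CHA19 and -0.09 in GR-WRI3, still lower in 4 of 4 lines of each, at 0.03 in GR-LBD16 and at -0.06 in GR-ENAP1.

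ACX1 and ACX2 overlapped between treatments. ACX1 had 203 to 430.3 CPM (median 278) over the 32 Dex libraries and 215 to 369.8 CPM (median 271) over the 32 mock libraries. ACX2 had 249 to 442 CPM (median 344) with Dex and 254 to 574 CPM (median 333) with mock treatment. Both were lower with Dex in 4 of 4 lines of GR-LBD16, with log2 fold changes of -0.14 ± 0.11 for ACX1 and -0.24 ± 0.13 for ACX2 (adjusted p = 0.634 and 0.621 from edgeR). These were -0.14 and -0.15 without the 6 libraries, with 4 of 4 lines lower for both. ACX2 was higher in 4 of 4 lines of GR-WRI3, at 0.13 ± 0.08, and in 3 of 4 without the 6 libraries (0.08).

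MFP2, the multifunctional protein on which seedlings mainly rely for storage oil, had the log2 fold change furthest from 0 of the 9 in each GR-TF. This held in GR-LBD16 and GR-WRI3 without the 6 libraries. In GR-CHA19, ACX1 (0.15), ACX4 (-0.14) and KAT2 (-0.13) were then further from 0 than MFP2 (0.11). In GR-ENAP1, AIM1 (-0.14), KAT2 (-0.11), ACX3 (0.07), LACS7 (0.06) and ACX4 (-0.06) were further from 0 than MFP2 (0.04). In GR-WRI3 MFP2 ran from 122 to 473 CPM (median 155) with Dex and from 116 to 157 CPM (median 135) with mock treatment, and 4 of 4 lines were higher. In GR-CHA19 it ran from 131 to 589 CPM (median 144) with Dex and from 126 to 141 CPM (median 132) with mock treatment, also higher in 4 of 4 lines. The highest Dex library in both came from the 6 that stood apart, and the other Dex libraries overlapped the mock ones. In GR-LBD16 MFP2 ran from 126 to 245 CPM (median 161) with Dex and from 142 to 1369.6 CPM (median 207) with mock treatment, and 4 of 4 lines were lower. The mock value of 1369.6 CPM also came from a library that stood apart. Single lines differed by 0.0046 to 1.502 on the log2 scale of Dex over mock in GR-CHA19. They differed by 0.10 to 1.009 in GR-WRI3 and by -2.57 to -0.13 in GR-LBD16. Without the 6 libraries these ranges were 0.0046 to 0.20, 0.016 to 0.42 and -0.29 to -0.13 in the same order.

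In edgeR's fit the log2 fold change of MFP2 was 0.51 ± 0.18 in GR-WRI3 (standard error, unadjusted p = 0.0146, adjusted p = 0.301). It was 0.46 ± 0.22 in GR-CHA19 (adjusted p = 0.362) and -0.77 ± 0.34 in GR-LBD16 (unadjusted p = 0.0443, adjusted p = 0.621), while in GR-ENAP1 it was -0.16 ± 0.28. Without the 6 libraries the values of MFP2 came to 0.18 in GR-WRI3 (unadjusted p = 0.0111, adjusted p = 0.606), 0.11 in GR-CHA19, -0.19 in GR-LBD16 and 0.04 in GR-ENAP1, with the same number of lines higher or lower in each. AIM1, its relative with a role in flower development, did not follow it. AIM1 ran from 117 to 193 CPM (median 160.3) over the Dex libraries and from 121 to 197 CPM (median 169) over the mock libraries, and its fold changes lay between -0.12 (GR-ENAP1) and 0.03 (GR-LBD16), or -0.14 and 0.06 without the 6 libraries.

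KAT2, the thiolase that closes each round, ran from 465 to 879 CPM (median 601) over the 32 Dex libraries and from 431 to 1519.7 CPM (median 684) over the 32 mock libraries. Its highest value was that of GR-LBD16 line 3 mock replicate 1, and the next highest, 879 CPM, was a Dex library. Over all lines the log2 fold change of KAT2 was -0.14 ± 0.07 (standard error, unadjusted p = 0.0394 and adjusted p = 0.743 from edgeR), with 12 of 16 lines lower. It was -0.08 without the 6 libraries, with 13 of 16 lines lower.

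GR-ENAP1 had a library that stood apart in each treatment, line 2 Dex replicate 1 and line 1 mock replicate 1. MFP2 ran from 111 to 427 CPM (median 129) in its 8 Dex libraries and from 111 to 606 CPM (median 129) in its 8 mock libraries, higher with Dex in 2 of 4 lines and lower in 2. ACX4 ran from 319 to 863 CPM (median 655) with Dex and from 231 to 873 CPM (median 634.5) with mock treatment. Over the 9 members the log2 fold change lay between -0.16 for MFP2 and 0.03 for ACX4, below 0 in 8 of 9, and the adjusted p-values from edgeR were all 0.99999. Without both libraries it was above 0 for 5 members and below 0 for 4.

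Leaving out a library decided some of these counts. The library left out was in each case the partner of a library that stood apart, which then remained as the only one of its line and treatment and was assumed to vary like the others. Without GR-CHA19 line 7 Dex replicate 2, 5 members passed (MFP2, ACX3, LACS7 and ACX1 higher and ACX4 lower), beside 45.1% of all genes. Without GR-LBD16 line 3 mock replicate 2, 7 members passed, all but ACX1 and AIM1, beside 44.5% of all genes, with ACX4 higher and the other 6 lower. Without GR-WRI3 line 8 Dex replicate 2, 4 members passed (MFP2, ACX3 and LACS7 higher, ACX4 lower), beside 25.4%. In every other fit of Dex against mock that left out a library or a line, 0 members passed. With no filter on low counts, 2 members passed in GR-WRI3, MFP2 and ACX3, beside 6.01% of the 26593 genes then tested.

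Whether the Dex effect differed between the GR-TFs, or between lines of a GR-TF, was tested with interaction terms. For the GR-TFs too the error was the spread between plates, not between lines. Between GR-TFs 0 of 9 members passed in edgeR, beside 0 of 19541 genes (0%), while before adjustment 3 members (MFP2, ACX3 and LACS7) and 14% of all genes were under 0.05. The lowest value was that of MFP2 (unadjusted p = 0.0108 and adjusted p = 0.293 from edgeR). When the 6 libraries were left out, 0 members passed (0.0102% of genes), and MFP2 alone was under 0.05 before adjustment (8.43% of genes). The line by treatment term passed for 0 of 9 members in each GR-TF, beside 0 genes (0%) in each, and 0 members had an unadjusted p-value under 0.05 (2.31% of genes in GR-CHA19, 5.12% for GR-ENAP1, 2.38% for GR-LBD16 and 2.65% for GR-WRI3). As above, the partners of libraries that stood apart decided this. The term passed for 5 members without GR-CHA19 line 7 Dex replicate 2 (35.2% of genes), 5 without GR-ENAP1 line 1 mock replicate 2 (35%), 7 without GR-LBD16 line 3 mock replicate 2 (47.7%) and 3 without GR-WRI3 line 8 Dex replicate 2 (5.4%).

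In the 6 libraries that stood apart, the members did not move as a block. MFP2 had 589 CPM in GR-CHA19 line 7 Dex replicate 1, against a median of 134 CPM in the other libraries of that GR-TF, and 427 CPM in GR-ENAP1 line 2 Dex replicate 1 (median 126 CPM). It had 473 and 268 CPM in line 8 Dex replicate 1 and line 10 Dex replicate 2 of GR-WRI3 (median 145 CPM). In the mock libraries it had 606 CPM in GR-ENAP1 line 1 mock replicate 1 and 1369.6 CPM in GR-LBD16 line 3 mock replicate 1 (median 178 CPM). MFP2 was thus above the range of the other libraries of its GR-TF in 6 of 6. The same was so for ACX3, with 110.0 to 298 CPM against medians of 54.6 to 76.4 CPM, and for LACS7, with 74.9 to 266 CPM against medians of 48.1 to 61.2 CPM.

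LACS6 was above that range in 5 of the 6 libraries. ACX4 was below it in 6 of 6, with 285 CPM in GR-CHA19 line 7 Dex replicate 1 (median 892 CPM), 319 CPM in GR-ENAP1 line 2 Dex replicate 1 and 231 CPM in line 1 mock replicate 1 (median 681 CPM). It had 465 and 630.2 CPM in the GR-WRI3 libraries (median 866 CPM) and 267 CPM in GR-LBD16 line 3 mock replicate 1 (median 510.1 CPM). AIM1 differed by -0.32 to 0.35 on the log2 scale of CPM plus 1. KAT2 was furthest above in GR-LBD16 line 3 mock replicate 1, at 1519.7 CPM, and differed by -0.23 to 0.52 in the other 5. Among 18623 genes with a mean of at least 1 CPM, the median of the 6 differences placed MFP2 at the 97.8th percentile, ACX3 and LACS7 at the 94.6th and ACX4 at the 9.55th. Of all these genes, 22.2% had a median difference of at least 1 on the log2 scale, upward or downward. Counts of libraries above or below the range, for the members and the lists below, are given without the share over all genes. The 6 libraries were set apart on all genes, these included, and the values are a description.

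**Figure D3:**
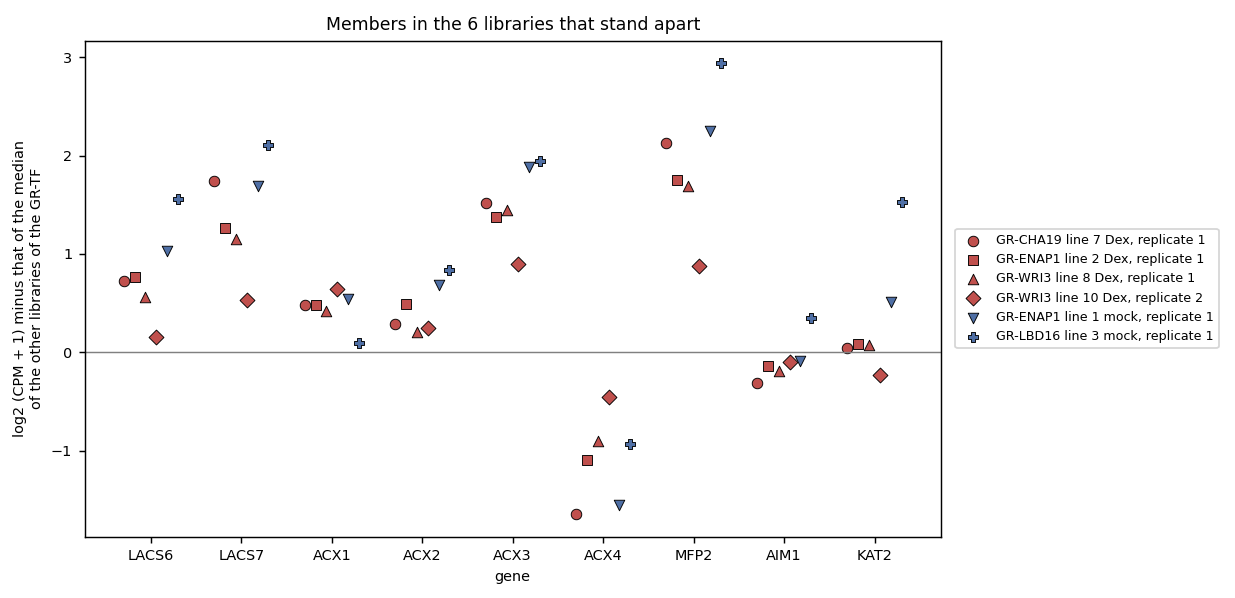
Difference of each gene in each of the 6 libraries from the median of the other libraries of its GR-TF, in log2 (CPM + 1), for 4 Dex libraries (red) and 2 mock libraries (blue). MFP2 lies from 0.88 to 2.94 above the median and ACX4 from -1.64 to -0.46 relative to it, while AIM1 lies between -0.32 and 0.35.

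Ratios of paired enzymes were taken per kilobase of exon. The ratio of MFP2 to AIM1 was 4.15 in GR-CHA19 line 7 Dex replicate 1, 3.10 in GR-ENAP1 line 2 Dex replicate 1, 3.05 and 1.62 in line 8 and line 10 of GR-WRI3, 4.27 in GR-ENAP1 line 1 mock replicate 1 and 7.31 in GR-LBD16 line 3 mock replicate 1. In the other 58 libraries it ran from 0.66 to 2.24, with a median of 0.83. MFP2 was thus the more abundant of the pair in the 6 libraries. In GR-LBD16 the median over 8 libraries was also above 1, at 1.26 with Dex and 1.45 with mock treatment, and in the other GR-TFs it was 0.74 to 0.93. ACX3 over ACX4 ran from 0.13 to 0.86 in the 6 libraries and from 0.035 to 0.25 in the 58. For both ratios GR-WRI3 line 10 Dex replicate 2 lay inside the range of the 58 and the other 5 above it. LACS7 over LACS6 (0.81 to 1.22, against 0.49 to 1.16) and ACX1 over ACX2 (0.55 to 1.07, against 0.67 to 1.09) overlapped the 58.

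Genes of several marker lists also differed there, not all in the same direction, and their part in the result was not tested. Malate synthase (MLS) and isocitrate lyase (ICL), the defining enzymes of the glyoxylate cycle, were above the range of the other libraries in 6 of 6, MLS at 443 to 4094 CPM against medians of 29.4 to 392 CPM and ICL at 2875 to 11688 CPM against 986 to 2632 CPM. Of the same list, PMDH1 and PCK1 were above the range in 6 and CSY3 in 5. CSY2, in contrast, was below it in 4, and PMDH2 below it in 3 and above it in 1. Summed over the 7 glyoxylate cycle and gluconeogenesis genes, the level was 5331 to 20192 CPM in the 6 libraries and 1884 to 9445 CPM in the 58. The 6 seed storage and oil body markers summed to 11.01 to 602.9 CPM, against 4.2 to 345 CPM, and each lay above the range in 0 to 3 of the 6 libraries. SESA4, a seed storage albumin, was at 0 in both GR-ENAP1 libraries, and SESA1 at 0 in GR-CHA19 line 7 Dex replicate 1 and GR-WRI3 line 10 Dex replicate 2. PORA and PORB, protochlorophyllide oxidoreductases of etiolated cotyledons, summed to 182 to 3482 CPM, against 126 to 2412 CPM, and were above the range in 5 libraries and below it in GR-LBD16 line 3 mock replicate 1. The 3 genes listed as root epidermis markers did not move together. ACT2 was below the range in 6 libraries, PHT1;1 below it in 3 and SHV2 above it in 5. Their sum, 348 to 1578 CPM against 1119 to 3409 CPM, is therefore not a measure of root epidermis. Summed, the 3 light-induced markers came to 699 to 5153 CPM, against 1747 to 5687 CPM. The transcripts of the 4 transcription factors summed to 146 to 205 CPM, against 185 to 641 CPM. In bulk seedlings, fewer cells of a type and less RNA per cell cannot be told apart.

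Levels under mock treatment were compared between GR-TFs with the 4 lines as replicates. Of 9 members, 2 passed in edgeR, beside 7408 of 19303 genes (38.4%). ACX4 averaged 913 CPM ± 50.2 (SD, n = 4 lines) in GR-CHA19, 624.8 ± 147 for GR-ENAP1, 494 ± 63.8 for GR-LBD16 and 876 ± 63.3 for GR-WRI3 (adjusted p = 0.00709). All lines of GR-LBD16 lay below all lines of GR-CHA19 and GR-WRI3. LACS7 averaged 49.5 ± 2.46 CPM in GR-CHA19, 67.8 ± 25.9 for GR-ENAP1, 98.6 ± 43.9 for GR-LBD16 and 51.4 ± 5.79 for GR-WRI3 (adjusted p = 0.0447). MFP2 (adjusted p = 0.0520), AIM1 (0.0559) and ACX3 (0.0673) did not pass. ACX4 passed in all 16 fits that left out a line and LACS7 in 6. Only ACX4 passed without GR-CHA19 line 5 (28.8% of genes), line 7 (30.1%), line 8 (29.9%) or line 9 (32.3%), GR-LBD16 line 12 (29.3%), or GR-WRI3 line 10 (32.9%), line 17 (30.2%), line 21 (29.8%) or line 8 (36.1%). Without GR-ENAP1 line 1 (47.1%) or line 4 (38.1%), or GR-LBD16 line 11 (40.7%), 4 members passed (ACX4, LACS7, ACX3 and MFP2), and without GR-ENAP1 line 5 (42.7%) AIM1 passed as well. ACX4, LACS7 and MFP2 passed without GR-LBD16 line 8 (35.8%), ACX4, AIM1 and KAT2 without its line 3 (33.3%), and ACX4 and LACS7 without GR-ENAP1 line 2 (35.5%). With library size alone 4 passed, ACX3 and MFP2 among them (41.6% of genes), and with no filter on low counts ACX4 alone (25.2%).

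With the 6 libraries left out, 6 members passed, beside 44.7% of the genes. KAT2 then averaged 773 CPM ± 73.3 (SD, n = 4 lines) in GR-CHA19, 569 ± 55.1 for GR-ENAP1, 523 ± 34.9 for GR-LBD16 and 734 ± 59.2 for GR-WRI3 (adjusted p = 0.000531 from edgeR). AIM1 averaged 179 ± 10.3, 156 ± 10.5, 142 ± 9.15 and 177 ± 6.49 CPM in the same order (adjusted p = 0.00566). KAT2, AIM1 and ACX4 were highest in GR-CHA19 and GR-WRI3. MFP2 (adjusted p = 0.00751), ACX3 (0.0162) and LACS7 (0.00897) were highest in GR-LBD16, MFP2 at 200 ± 53.3 CPM there, against 133 ± 3.94 in GR-CHA19, 137 ± 28.3 in GR-ENAP1 and 136 ± 15.3 in GR-WRI3. ACX1, ACX2 and LACS6 did not pass in either fit.

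**Figure D4:**
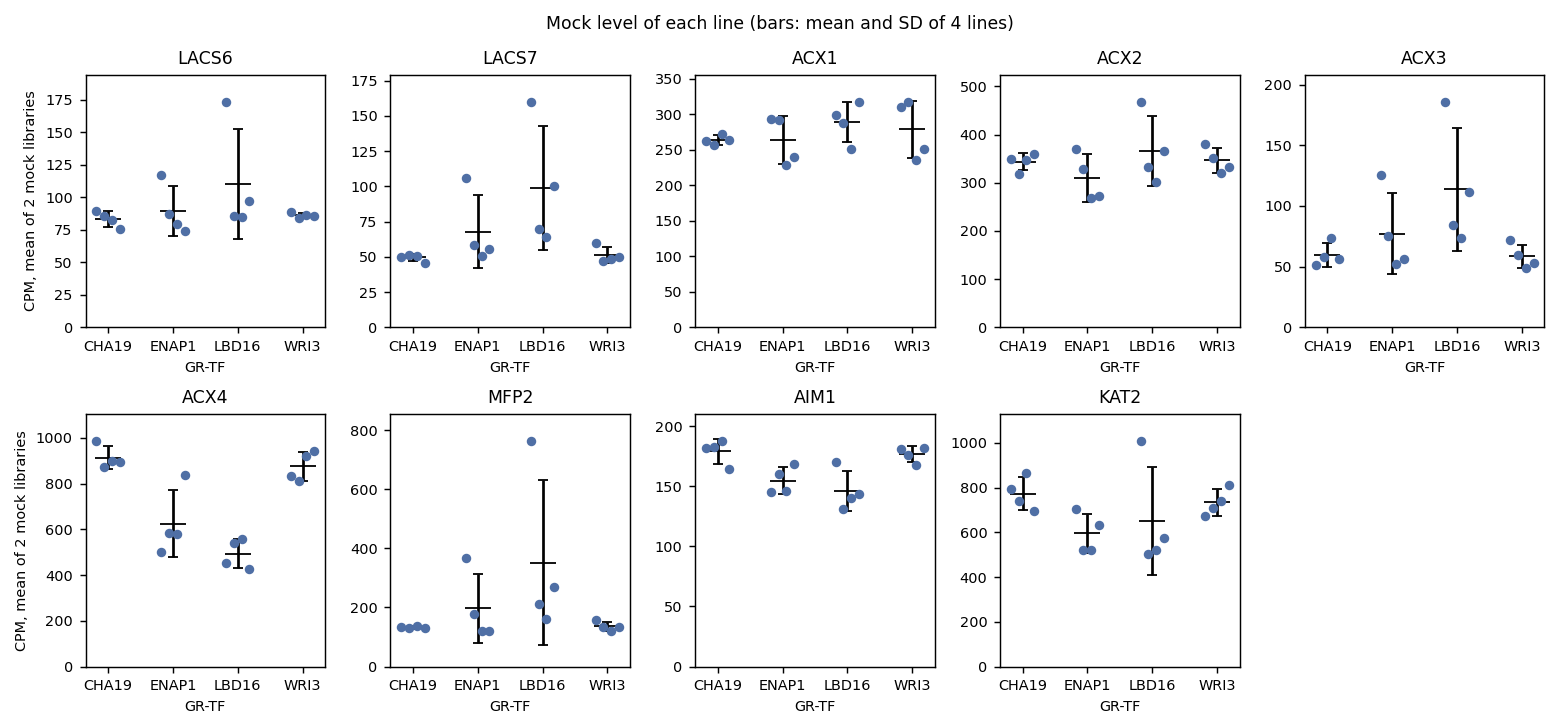
Level of each gene in each line under mock treatment, as the mean of 2 libraries in CPM, by GR-TF, with the mean and SD of 4 lines. The high points of LACS6, LACS7, ACX3, MFP2 and KAT2 in GR-LBD16 are line 3, and all lines of GR-LBD16 lie below those of GR-CHA19 and GR-WRI3 for ACX4.

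Between lines of the same GR-TF under mock treatment, 0 of 9 members passed in edgeR, beside 5 of 19232 genes (0.026%), while before adjustment 1 member and 4.8% of all genes were under 0.05 (4 and 22.4% without the 6 libraries). When the 6 libraries were left out, 2 members passed, ACX3 (adjusted p = 0.0177) and MFP2 (adjusted p = 0.0289), beside 947 of 19360 genes (4.89%). In GR-LBD16 MFP2 had 241 and 245 CPM in line 12 with Dex and 237 and 303 CPM with mock treatment. In line 11 it had 129 and 164 CPM with Dex and 178 and 142 CPM with mock treatment, so that all values of line 12 lay above all values of line 11.

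How far members' levels moved together was read from Pearson's r of log2 CPM. Over the 58 libraries, r was 0.88 between MFP2 and ACX3 and 0.83 between MFP2 and LACS7, and 0.84 and 0.76 with each GR-TF centred on its mean. With all 64 libraries these were 0.95 and 0.96. Among KAT2, AIM1 and ACX4, r was 0.78 to 0.81 over the 58 and 0.52 to 0.57 after centring. With all 64 libraries KAT2 and AIM1 had r = 0.69, ACX4 and AIM1 0.61, and ACX4 and KAT2 0.18 (-0.24 after centring), so that ACX4 did not follow KAT2 there. MFP2 and ACX4 had r = -0.63 over the 58 (-0.52 after centring) and -0.81 over all 64. ACX1 had r = 0.77 with ACX2 and 0.63 with ACX3 over the 58 (0.80 and 0.71 after centring). These values describe libraries that share GR-TFs, lines and scaling factors.

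**Figure D5:**
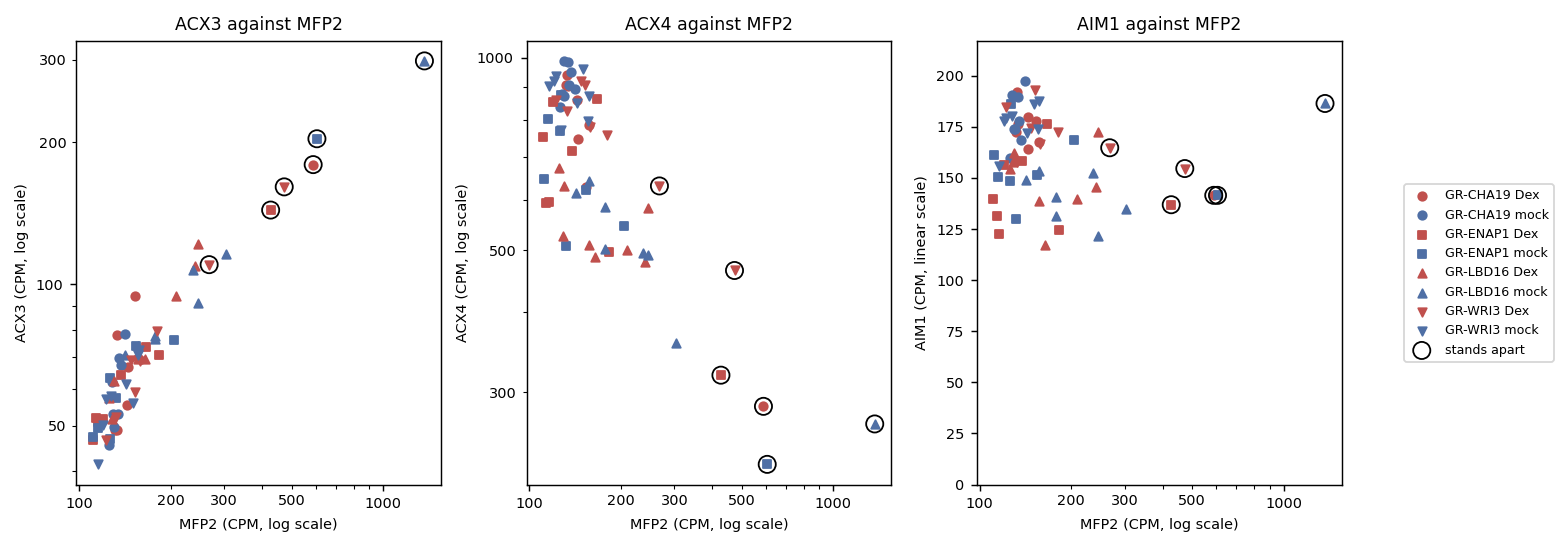
ACX3, ACX4 and AIM1 against MFP2 in 64 libraries, in CPM (log scales but for AIM1), by GR-TF (symbol) and treatment (Dex red, mock blue). ACX3 rises and ACX4 falls along MFP2, also among the 58 libraries that are not circled, and AIM1 stays between 117 and 197 CPM.

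Genes whose pattern was most like that of the members' mean over 32 means of a line and treatment, centred on each GR-TF, were ranked among 14805 genes with a mean of at least 5 CPM. With the 6 libraries left out, the first were UBP6 (AT1G51710, r = 0.82), a ubiquitin protease, PCK1 (AT4G37870, r = 0.81), the phosphoenolpyruvate carboxykinase of gluconeogenesis, ABCC3 (AT3G13080, r = 0.78), ASP2 (AT5G19550, r = 0.77), an aspartate aminotransferase, and PA200 (AT3G13330, r = 0.77), a proteasome activator. With all libraries UBP6 (r = 0.91) and PCK1 (r = 0.89) were again among the first 10, with SUS2 (AT1G80070, r = 0.91), a splicing factor of the PRP8 family, second.

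The rest of the pathway and its neighbours were read from lists given by locus. With Dex over all lines, edgeR called 0 genes of every list. At an unadjusted p-value under 0.05 stood 1 of 16 other beta-oxidation enzymes tested, 0 of 6 peroxisomal carriers and catalases, 1 of 7 glyoxylate cycle and gluconeogenesis genes, 1 of 5 oil body lipolysis genes and 3 of 22 peroxisome biogenesis genes, and DESeq2 also called 0 of them. Their median log2 fold changes were -0.02, -0.06, 0.01, -0.11 and -0.05. Nearest to the threshold was PEX11E, which acts in peroxisome division (-0.15, unadjusted p = 0.0033, adjusted p = 0.5997 from edgeR). PORA and PORB were at 0.75 and 0.61 (adjusted p = 0.638 and 0.611 from edgeR). These fits include the 6 libraries that stood apart, where both genes lay above the range in 5 and below it in 1. Both had an unadjusted p-value under 0.05, beside 6.58% of all genes, and so they did in GR-CHA19 and GR-WRI3 alone. Over all lines, 0 of the 6 seed markers, 0 of 3 root markers and 0 of 3 light-induced markers had an unadjusted p-value under 0.05.

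Under mock treatment edgeR called 7 of 15 other beta-oxidation enzymes as different between GR-TFs, 2 of 6 carriers and catalases, 3 of 7 glyoxylate cycle and gluconeogenesis genes (ICL, MLS and CSY2), 3 of 5 oil body lipolysis genes and 10 of 22 peroxisome biogenesis genes, beside the 38.4% of all genes given above. Of the markers, 2 of 5 seed genes tested, 2 of 2 etiolated cotyledon genes, 2 of 3 root genes and 0 of 3 light-induced genes passed. The parts of these markers in the members' differences between GR-TFs were not tested. In the 6 libraries that stood apart, the median difference was above 0 for 8 and below 0 for 7 of the 15 other beta-oxidation enzymes with a mean of at least 1 CPM, and above 0 for 4 and below 0 for 2 of the 6 carriers and catalases. Single genes were picked here after their values were seen. PKT4, another thiolase, was above the range of the rest in 6 of 6, by 0.88 to 1.81 on the log2 scale. ACX5, the closest relative of ACX1, and AAE7, the acetate-activating enzyme, were below the median in 6 of 6. The catalase CAT3 was below the range in 6 of 6, at -3.51 to -0.48 on the log2 scale, while CAT2 was above the median in 6 of 6.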

How the data were processed

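The authors deposited raw counts per gene, 1 table for each GR-TF, made from reads trimmed with Trim Galore (0.6.0), checked with FastQC (0.11.7) and aligned with STAR (2.7.0f) to TAIR10, per the submitters' processing notes. The libraries were made from polyadenylated RNA without strand information, so reads of overlapping genes cannot be separated. Counts of the 2 sequencing runs of a library were summed. The pathway genes and the other lists were chosen with earlier results of these data known. Of 10 genes chosen, 1 is not reported here, and the other 9 were reported in every comparison. Genes of other lists were named where they passed a test or had the lowest p-values, and some, after their values were seen, for their place in the libraries that stood apart. Genes with a similar pattern were the first 10 by Pearson's r.

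Counts were fitted with edgeR (4.0.16, R 4.3.3) after TMM scaling and its filter on low counts, with robust quasi-likelihood tests, Benjamini-Hochberg adjustment over all genes tested and a threshold of 0.05. Every line and treatment had its own mean, and the Dex effect was the mean of the within-line differences. Its standard error was taken as the absolute log2 fold change divided by the square root of the F value of the test. Mock levels were compared between GR-TFs with the counts of each line summed. Alternatives were other scaling factors, no filter, DESeq2 (1.42.0), glm.nb (MASS 7.3.60.0.1), a replicate block, a fit of all libraries and leaving out libraries or lines. A library stood apart where its correlation was more than 3 interquartile ranges below the lower quartile. Log2 differences of single libraries used a pseudocount of 1 CPM. Replicates are separate plates of a line, so p-values within a GR-TF measure the spread between plates. So do those of the Dex effect over all lines and of its difference between GR-TFs. The fit was tested on counts simulated from mean levels and edgeR's dispersions, in which no library was made to stand apart. Gene models and promoters came from RefSeq (TAIR10.1), which matched 32548 of 32833 loci. Figures were drawn with matplotlib (3.10.9).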

Additional observations from a re-analysis of the deposited data

Results flagged for a closer look

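In 22 of 72 groups of 8 libraries, the highest CPM value of a gene lay far above the other 7. The test, for a single outlying value, is passed by chance in about 1 of 20 groups. The 72 groups hold genes that vary together in the same libraries, so this rate cannot be set against the 22. All 22 came from libraries that stood apart, which were set apart on all genes, these included. No lowest value was flagged. In GR-CHA19 line 7 Dex replicate 1 the flagged values were ACX3 (179 CPM), MFP2 (589 CPM), LACS6 (135 CPM) and LACS7 (163 CPM). GR-ENAP1 line 2 Dex replicate 1 gave ACX3 (144 CPM), MFP2 (427 CPM), LACS6 (133 CPM) and LACS7 (125 CPM). GR-WRI3 line 8 Dex replicate 1 gave MFP2 (473 CPM), LACS6 (124 CPM) and LACS7 (116.0 CPM). Among mock libraries, GR-ENAP1 line 1 replicate 1 gave ACX2 (454 CPM), ACX3 (204 CPM), MFP2 (606 CPM), LACS6 (160.0 CPM) and LACS7 (168 CPM). GR-LBD16 line 3 mock replicate 1 gave ACX2 (574 CPM), ACX3 (298 CPM), MFP2 (1369.6 CPM), KAT2 (1519.7 CPM), LACS6 (259 CPM) and LACS7 (266 CPM).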

How the results depend on the processing

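Of the values of single genes under the alternatives, 2198 kept their direction and side of the threshold, 66 passed it newly, 11 lost it and 47 changed sign. With glm.nb 1 of 9 genes was called with Dex for GR-CHA19, 2 for GR-LBD16 and 5 for GR-WRI3. With no filter 2 were called for GR-WRI3. Leaving out a library in turn gave 0 to 5 called genes for GR-CHA19, 0 to 7 for GR-LBD16 and 0 to 4 for GR-WRI3. For line by treatment it gave 0 to 5 for GR-CHA19, 0 to 5 for GR-ENAP1, 0 to 7 for GR-LBD16 and 0 to 3 for GR-WRI3. Mock levels between GR-TFs gave 4 called genes with library size alone, 1 with no filter, 6 without the 6 libraries that stood apart and 1 to 5 without each line. Between lines, 2 were called without those 6 libraries. The causes were not tested.

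With library size alone the log2 fold change of AIM1 in GR-CHA19 was 0.0046 and that of ACX2 over all lines 0.0063, both with the sign turned. Without the 6 libraries the sign also turned for LACS6 in GR-CHA19 (-0.027) and GR-WRI3 (-0.086), KAT2 in GR-LBD16 (0.0018), and ACX1 (-0.0039) and LACS7 (0.0064) over all lines. In GR-ENAP1 it turned for ACX2 (0.011), ACX3 (0.074), ACX4 (-0.057), MFP2 (0.043), LACS6 (0.016) and LACS7 (0.064). Leaving out libraries in turn, GR-ENAP1 gave -0.12 to 0.021 for ACX1, -0.090 to 0.073 for ACX2, -0.31 to 0.22 for ACX3, -0.13 to 0.30 for ACX4, -0.34 to 0.22 for MFP2, -0.19 to 0.084 for LACS6 and -0.28 to 0.20 for LACS7. The other ranges across 0 were -0.027 to 0.14 (LACS6, GR-CHA19), -0.026 to 0.082 (AIM1, GR-LBD16), -0.40 to 0.0018 (KAT2, GR-LBD16) and -0.072 to 0.12 (LACS6, GR-WRI3). Over all lines, leaving out a line in turn, they were -0.033 to 0.027 for ACX2, -0.026 to 0.15 for ACX3, -0.10 to 0.074 for LACS7 and -0.10 to 0.17 for MFP2.

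Replicate numbers did not pair the libraries of a line, whose same-numbered deviations had correlations from -0.302 to 0.377, and with a replicate block 0 genes of the 9 were called with Dex in each GR-TF and over all lines, beside 3 of 18311 genes tested for GR-WRI3 and 0 genes in the others. With 2 replicates per line and treatment, fits without a library rest on a lone partner. Each of the 9 genes had at least 104 counts in each library.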
